A study of Equus caballus with 19 samples.

Results

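The tumour necrosis factor (TNF) superfamily was examined in equine tenocytes through 10 genes, taken by name out of 29196 gene names: the 5 ligands TNF, TNFSF10, TNFSF11, TNFSF13B and TNFSF15 and the 5 receptors TNFRSF1A, TNFRSF1B, TNFRSF11B, FAS and CD40. The cells were primary wild-type (WT) adult tenocytes grown out of the superficial digital flexor tendon of Thoroughbred horses, with 1 donor for each line. Ages are not given for each line, and the study's methods give only a range over all of its donors. Every line was held in serum-containing medium in 3D gels of bovine type I collagen until day 14, and the whole construct was then harvested for RNA sequencing. In the first batch, lines 1 to 5 were each kept without cytokine (control) or with 1 nM IL-1β, which gave 10 libraries. In the second batch, lines 6 to 8 were each kept as control, with 1 nM IL-1β, or with 1 nM IL-1β and 100 ng/ml of IL1Ra, a soluble protein that occupies the IL-1 receptor without activating it, which gave 9 libraries. No library had IL1Ra alone.

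TNF superfamily ligands are mostly made as membrane proteins that act as trimers on the cell surface or after being cut free. Their receptors fall into those with a cytoplasmic death domain, which can recruit caspases, those that bind TRAF adaptor proteins and signal to NF-κB, and soluble decoys. TNFRSF1A and FAS carry death domains, TNFRSF1B and CD40 bind TRAF proteins, and TNFRSF11B (osteoprotegerin) is a secreted decoy. TNFRSF11B binds TNFSF11 (RANKL), the ligand that drives osteoclast formation, and also TNFSF10 (TRAIL), a ligand that can trigger apoptosis through death receptors. TNFSF13B (BAFF) is known as a survival factor for B cells, and TNFSF15 (TL1A) costimulates T cells through TNFRSF25. In tendon, TNF and IL-1β are both studied as cytokines that turn tenocytes towards matrix breakdown.

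All values below are DESeq2-normalised counts as deposited, in which each batch was scaled on its own, so values of the first and second batch are not compared with each other. They are not corrected for gene length, so levels of different genes are not ranked. Library sums ran from 43.4 to 49.2 M normalised counts in the first batch (M for 1e6), and from 24.96 to 34.6 M in the second. IL6, a standard IL-1β response gene, was at 90.0 to 865.3 in the 8 control libraries and at 57340 to 168100 in the 8 IL-1β libraries. With IL1Ra added, IL6 was at 13780 in line 6 but at 201700 and 119200 in lines 7 and 8. Summed tenocyte markers were at 425000 or more in every library of the first batch and 132100 or more in the second, although TNMD, a marker of mature tendon cells, was at 0 in every group but the second-batch controls. The same sum was 1013000 to 1791000 in first-batch controls and 425000 to 805400 with IL-1β, and the mural cell marker sum was 11200 to 19350 and 3056 to 4400. Most of the tenocyte marker sum came from COL1A1, COL1A2 and DCN. In the first batch 6 of 8 tenocyte markers and 5 of 6 mural markers tested were DE downward with IL-1β, as were 7.9% of all genes. In the second 0 were, where only 0.341% of all genes were DE in either direction. DCN was higher with IL-1β in 5 of 5 and 3 of 3 lines (log2-fold changes 0.73 and 1.61) and was not DE. With the line as a block, a fit described below, 2 tenocyte markers (SCX and COMP) and 3 mural markers (CSPG4, MCAM and DES) were DE downward in the second batch (2.59% of all genes). Endothelial markers summed to 147.9 at most in the first batch, and to 87.0 at most in the second. The part of these shifts in the results below was not tested. In bulk RNA of this kind, fewer cells of a type and less RNA per cell cannot be told apart.

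DE below means an adjusted p under 0.05 and a log2-fold change of at least 1 in either direction, as fitted by limma to log2(normalised count + 1), where p-values were adjusted by Benjamini-Hochberg over every gene tested in the batch. Adding 1 shrinks the fold change of genes with few counts. With IL-1β in the first batch, 8 of the 10 genes had enough counts to be tested, and 1 of them, CD40, was DE, whereas 12.8% of all 14719 genes tested were. The 8 genes split into 4 higher and 4 lower, and their median log2-fold change was 0.20 against −0.0034 over all genes. In the second batch, 9 genes were tested and 0 were DE, where 0.341% of 16705 genes were. One of these 9, TNFRSF1B, had an unadjusted p under 0.05, as did 11.4% of all genes. Because each line gave both a control and a treated library, the fit was also made with the line as a block. In that fit 6 of the 9 had an unadjusted p under 0.05 in the second batch, against 22.2% of all genes, and TNF, one of the 6, passed the filter only through treated libraries. With the block, CD40 remained the single DE gene of the first batch (16.2% of all genes), and 3 genes became DE in the second batch: CD40 upward, and TNFRSF1B and TNFSF10 downward (5.18% of all genes, 2.59% in each direction). Without line 7 or line 8 the blocked fit had 0 members DE there, where 0 and 33 of all genes were DE.

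TNF itself was near or at 0 in every control library. In the first batch, TNF was listed at 0 in the controls of lines 2 to 5 and at 0.771 in that of line 1. With IL-1β it was 56.3 in line 1, 23.4 in line 2, 0.864 in line 5 and 0 in lines 3 and 4. Only lines 1 and 2 thus had TNF transcripts above a few counts, and the groups overlapped. TNF missed the filter of 10 normalised counts in 5 libraries. An exact permutation test of the mean difference of 2.10 on the log2(normalised count + 1) scale gave p = 0.167 (two-sided, n = 5 per group, where 0.00794 is the smallest p possible).

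TNF was listed at 0 in all 3 second-batch controls. IL-1β libraries had 0 in line 6, 74.3 in line 7 and 21.1 in line 8. With IL-1β + IL1Ra it was 0, 16.4 and 2.01 in the same lines. Lines 7 and 8 therefore carried TNF with IL-1β and less of it with IL1Ra, and line 6 was listed at 0 in every condition. TNF passed the filter here only through treated libraries. Its log2-fold change was −1.66 (SE 1.61) with IL-1β + IL1Ra against IL-1β, lower in the 2 lines that had TNF. No fold is given against the control libraries, since a 0 in these tables can be a failed estimate as well as an absent transcript.

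Leukocytes are a well-known source of TNF, so their markers are given beside these values. The sum of the 13 leukocyte markers ran from 15.6 to 116.3 over first-batch libraries and from 15.4 to 174.7 over second-batch libraries, and CD79A and AIF1 were listed at 0 throughout. PTPRC (CD45), the pan-leukocyte marker, was at most 6.46. LAPTM5, the one marker with enough counts to be tested in the first batch, was DE downward with IL-1β there (log2-fold change −2.06, adjusted p = 0.0410), but not with the line as a block (adjusted p = 0.0569). In the second batch 3 markers were tested and 0 were DE. FCER1G went the other way, from a mean of 3.56 in controls to 28.7 with IL-1β (log2-fold change 2.13, higher in 3 of 3 lines). LAPTM5 and ITGAM had log2-fold changes of −1.07 and −0.12 there. Line 7 with IL-1β had both the highest TNF and the highest marker sum (174.7, PTPRC 5.67). Line 1 with IL-1β, the highest TNF of its batch, had a marker sum of 113.7 (PTPRC 3.64), whereas controls of lines 3 and 5 reached 116.3 and 110.7 with TNF at 0. PTPRC was at 0 in line 2 with IL-1β, where TNF was 23.4, and at 6.46 in line 8 with IL-1β, where TNF was 21.1. The part of rare leukocytes in the TNF values was not tested.

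TNFSF10 spread widely among control libraries, over 41.2 times in the first batch. In those controls it was 1251, 296.9, 30.4, 267.6 and 356.4 in lines 1 to 5. With IL-1β it was 197.0, 221.1, 51.7, 39.4 and 100.4 in the same lines. It was lower with IL-1β in 4 of 5 lines and higher in line 3, whose control was the lowest of all, and the groups overlapped. The log2-fold change was −1.38 (SE 0.87, 95% confidence interval −3.30 to 0.55, adjusted p = 0.268). Leaving out line 3 gave −1.91 (adjusted p = 0.0674), and TNFSF10 was DE without line 3 when the line was a block (adjusted p = 0.0175).

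TNFSF10 was 44.0, 1746 and 2513 in the controls of lines 6 to 8. The IL-1β libraries of these lines had 24.2, 322.8 and 137.8. Those with IL-1β + IL1Ra had 159.0, 4090.2 and 2617. Within each line the IL-1β library was the lowest of the 3 and the IL-1β + IL1Ra library the highest, while line 6 stayed far below lines 7 and 8 in every condition. The log2-fold change with IL-1β was −2.48 (SE 1.81, adjusted p = 0.705). Blocking on the line gave an SE of 0.53 and an adjusted p of 0.0399. Between IL-1β + IL1Ra and IL-1β it was 3.52 (SE 1.81, 95% confidence interval −0.62 to 7.67), higher in 3 of 3 lines by 2.67, 3.66 and 4.24, and was not DE (adjusted p = 1.00, and 0.152 with the block).

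TNFSF11 moved in both directions. First-batch controls of lines 1 to 5 had 3074, 1946, 134.0, 847.2 and 373.9. The IL-1β libraries had 1501, 1082, 3483, 2167 and 1855. Lines 1 and 2, with the highest controls, had log2 ratios of −1.03 and −0.85, and lines 3, 4 and 5 were higher by 4.69, 1.35 and 2.31. The highest control was 22.9 times the lowest, against 3.22 times among the IL-1β libraries, which is a description with no test. The log2-fold change was 1.29 (SE 0.75, 95% confidence interval −0.36 to 2.95, adjusted p = 0.226).

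Second-batch controls had 28.2, 1819 and 1712 TNFSF11 counts in lines 6 to 8. The IL-1β libraries had 518.8, 2097 and 4637. The IL-1β + IL1Ra libraries had 49.1, 816.4 and 1923. The gene was higher with IL-1β in 3 of 3 lines and lower again with IL1Ra in 3 of 3 lines, but line 6 was again far below the others in control. The log2-fold changes were 1.93 (SE 1.88, adjusted p = 0.811, and 0.129 with the block) with IL-1β and −2.00 (SE 1.88) with IL-1β + IL1Ra against IL-1β. Neither passed the test.

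TNFSF13B had low counts in the first batch, with controls of 99.6, 27.1, 13.1, 7.32 and 6.22 and IL-1β libraries of 27.7, 43.5, 54.7, 44.1 and 2.60 in lines 1 to 5. It was higher in lines 2, 3 and 4 and lower in lines 1 and 5, and the log2-fold change was 0.45 (SE 0.90, adjusted p = 0.747). Lines 6 to 8 had 16.2, 166.4 and 280.7 in controls, 23.8, 47.3 and 12 with IL-1β, and 13.5, 2159 and 336.6 with IL-1β + IL1Ra. Line 7 with IL-1β + IL1Ra stood apart from the other 8 libraries. The log2-fold changes were −1.90 (SE 1.76, adjusted p = 0.799) with IL-1β and 3.13 (SE 1.76, 95% confidence interval −0.89 to 7.16) for IL-1β + IL1Ra against IL-1β, the latter higher in 2 of 3 lines. TNFSF13B overlaps ABHD13 in a newer horse assembly, so reads of the pair may not be fully separated.

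TNFSF15 stayed below the filter in both batches. First-batch controls had 4.40, 4.35, 3.72, 3.87 and 6.55 counts, and the IL-1β libraries had 0, 1.07, 6.27, 1.01 and 0. It was lower in 4 of 5 lines, and the mean log2(normalised count + 1) differed by −1.48 (exact permutation test, two-sided p = 0.0397, n = 5 per group). Permuting the signs within lines gave an exact permutation p of 0.125, where 5 lines allow none below 0.0625. Without line 1, 2, 4 or 5 the exact permutation p was 0.114 to 0.143. Second-batch values were 19.0, 0.935 and 0 in controls, 2.03, 0 and 0 with IL-1β, and 10.7, 0.969 and 3.24 with IL-1β + IL1Ra in lines 6 to 8. Exact permutation p values there were 0.7 for IL-1β against control and 0.2 for IL-1β + IL1Ra against IL-1β (n = 3 per group, where 0.1 is the smallest possible).

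**Figure D1:**
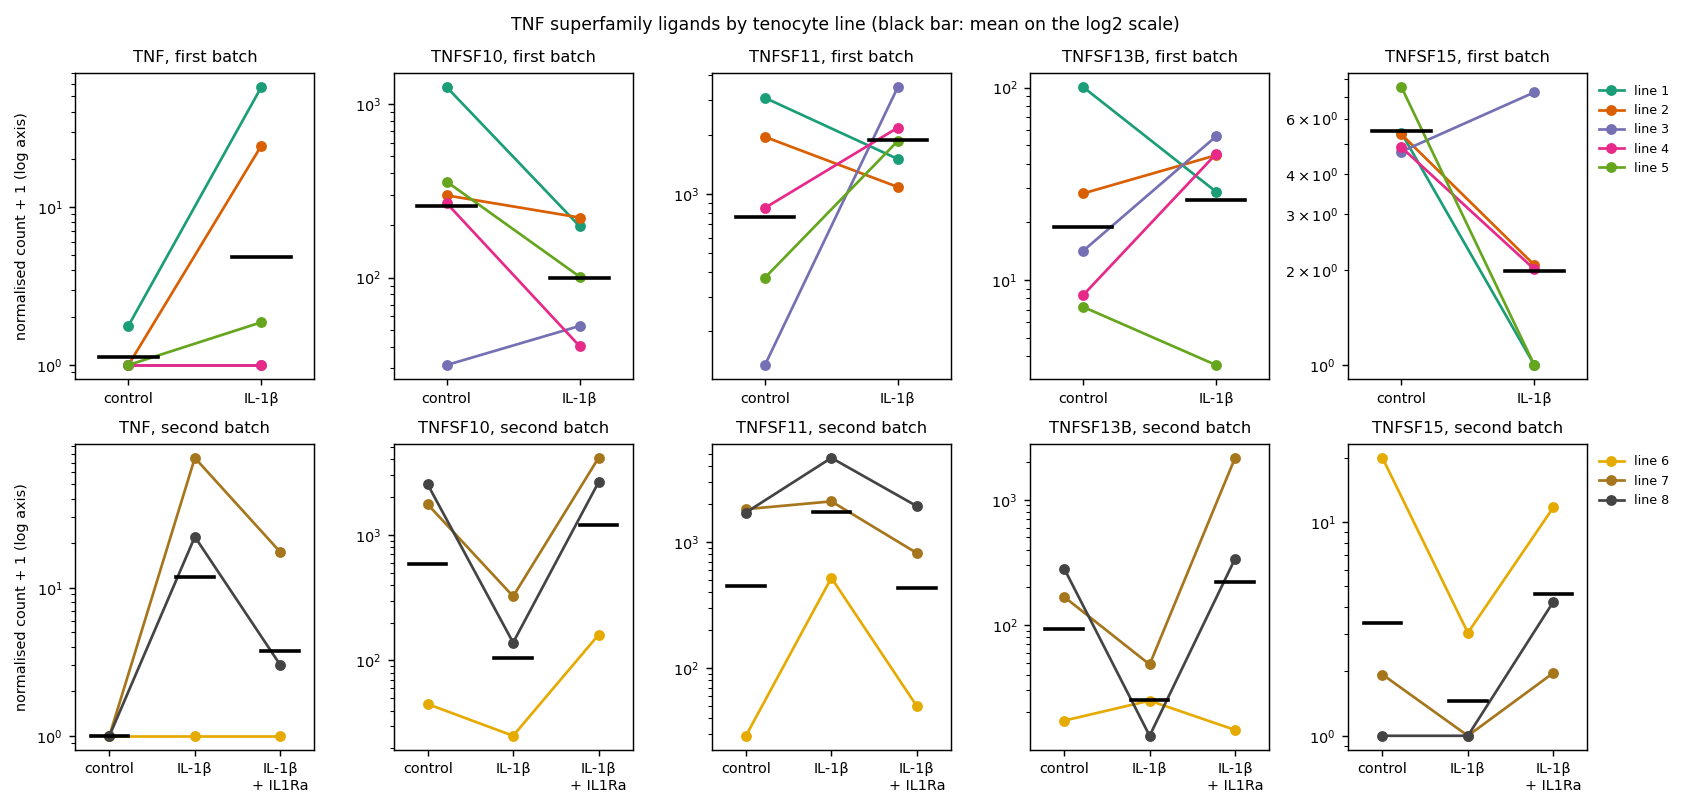
Normalised count + 1 (log axis) of the 5 ligands by condition, with the first batch above and the second below. Each point is a library, coloured lines join the libraries of a tenocyte line, and black bars are means on the log2 scale. TNF leaves the floor in lines 1, 2, 7 and 8, and TNFSF10 is lowest with IL-1β in lines 6, 7 and 8.

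CD40, the receptor that binds TRAF proteins after contact with CD40LG, was the clearest response of the 10. In first-batch controls it was 1255, 927.4, 511.2, 425.1 and 592.1 in lines 1 to 5. With IL-1β it was 3419.7, 2273, 2346, 1739 and 1647 in the same lines. All 5 IL-1β libraries lay above all 5 controls, a separation that 9.34% of the genes tested also had in the upward direction. The mean went from 742.2 ± 344.2 to 2285 ± 706.4 (SD, n = 5 each), a log2-fold change of 1.69 (SE 0.31, adjusted p = 0.00281, and 5.16e-04 with the block). CD40 was upregulated in 5 of 5 lines, by 1.29 to 2.20 within a line, and 4.91% of all genes were DE upward. It was DE without any 1 of the 5 lines in turn (adjusted p = 0.00189 to 0.0165).

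CD40 was 224.0, 868.1 and 723.2 in the controls of lines 6 to 8. Their IL-1β libraries had 670.1, 2141 and 1606. With IL-1β + IL1Ra it was 377.2, 2659 and 1627. Each line was higher with IL-1β, by 1.15 to 1.58 within the line, but the levels of line 6 made the groups overlap. The log2-fold change with IL-1β was 1.34 (SE 0.81, adjusted p = 0.609), and CD40 was DE with the line as a block (SE 0.23, adjusted p = 0.0223). With IL-1β + IL1Ra, CD40 was above control in 3 of 3 lines, and the log2-fold change was 1.18 (SE 0.81, adjusted p = 1.00, and 0.123 with the block). Between IL-1β + IL1Ra and IL-1β the change was −0.17 with a 95% confidence interval of −2.03 to 1.70, and of −0.70 to 0.37 with the block. Its ligand CD40LG had no counts in any first-batch library, and was above 0 in at least 1 library of each second-batch condition.

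TNFRSF1B (TNFR2), which binds TRAF proteins and has no death domain, was lower with IL-1β in 7 of the 8 lines. In first-batch controls it was 8073, 6571, 2821, 6655 and 7367 in lines 1 to 5. The IL-1β libraries had 2262, 4022, 7517, 3016 and 2836. Line 3 moved against the others, from the lowest control to the highest IL-1β library, and its log2 ratio was 1.41 against −0.71 to −1.84 in lines 1, 2, 4 and 5. Over all 5 lines the log2-fold change was −0.73 (SE 0.36, 95% confidence interval −1.52 to 0.06, adjusted p = 0.154). Without line 3 TNFRSF1B was DE, with a log2-fold change of −1.27 (adjusted p = 0.00164, and 0.00517 with the block).

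Second-batch TNFRSF1B was 2258, 3782 and 4914 in controls. The values with IL-1β were 1336, 1526 and 1474. With IL-1β + IL1Ra it was 2747, 3854 and 3058. The 3 IL-1β libraries lay below the other 6 and close to each other. The log2-fold change of −1.27 (SE 0.28, 95% confidence interval −1.91 to −0.62) had an adjusted p of 0.125, and of 0.0226 with the block, which made it DE. The groups did not overlap, as held downward for 7.61% of all genes. IL-1β + IL1Ra against IL-1β gave a log2-fold change of 1.14 (SE 0.28, 95% confidence interval 0.50 to 1.79), higher in 3 of 3 lines by 1.04, 1.34 and 1.05. This was not DE over all genes (adjusted p = 1.00, and 0.204 with the block), although the groups did not overlap, as held upward for 3.12% of genes. IL-1β + IL1Ra and control differed by −0.12 (95% confidence interval −0.77 to 0.52).

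TNFRSF1A (TNFR1), the death domain receptor for TNF, varied little between control libraries. First-batch controls had 3940.2, 3171, 5169, 4888 and 4729 counts, and the IL-1β libraries had 4979.9, 3981, 3762, 4084 and 4024. The highest control was 1.63 times the lowest, and the log2-fold change was −0.06 with a 95% confidence interval of −0.36 to 0.25 (adjusted p = 0.797), which reached neither −1 nor 1. Second-batch values were 3017, 2322 and 2478 in controls, 2289.8, 3214 and 2757 with IL-1β, and 3209, 3215 and 2654 with IL-1β + IL1Ra. The log2-fold change with IL-1β was 0.08 (95% confidence interval −0.35 to 0.50, adjusted p = 0.944), and its sign changed under total-count scaling (−0.11, where the median of all genes was −0.19).

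FAS, the death domain receptor for FASLG, was also level in the first batch. Controls had 413.6, 281.1, 507.6, 235.2 and 309.4 counts and the IL-1β libraries 423.1, 233.5, 563.7, 247.7 and 181.6, with a log2-fold change of −0.15 (SE 0.33, adjusted p = 0.764). FAS in lines 6 to 8 was 362.3, 317.7 and 708.1 in controls, 284.9, 218.2 and 274.7 with IL-1β, and 230.4, 650.5 and 535.4 with IL-1β + IL1Ra. All 3 IL-1β libraries lay below the 3 controls, as held for 7.61% of all genes, and the log2-fold change was −0.75 (SE 0.44, 95% confidence interval −1.76 to 0.26, adjusted p = 0.593). FASLG was listed at 0 in the first batch and in the controls and IL-1β libraries of the second.

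TNFRSF11B (osteoprotegerin) had 58.4, 123.7, 10.2, 56.2 and 28.7 counts in first-batch controls and 61.6, 79.5, 69.3, 122.4 and 54.6 with IL-1β. Lines 1, 3, 4 and 5 were higher, most so line 3, and the log2-fold change was 0.82 (SE 0.57, adjusted p = 0.311). Lines 6 to 8 had 55.4, 9.32 and 32.8 in controls, 39.0, 157.3 and 222.2 with IL-1β, and 11.6, 11.6 and 60.4 with IL-1β + IL1Ra. Lines 7 and 8 were higher with IL-1β by 3.94 and 2.72, and line 6 was lower. The log2-fold change with IL-1β was 2.06 (SE 0.95, adjusted p = 0.460). With IL-1β + IL1Ra against IL-1β it was −2.39 (SE 0.95, 95% confidence interval −4.56 to −0.22), lower in 3 of 3 lines and not DE over all genes. TNFRSF11B overlaps COLEC10 in the newer assembly.

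**Figure D2:**
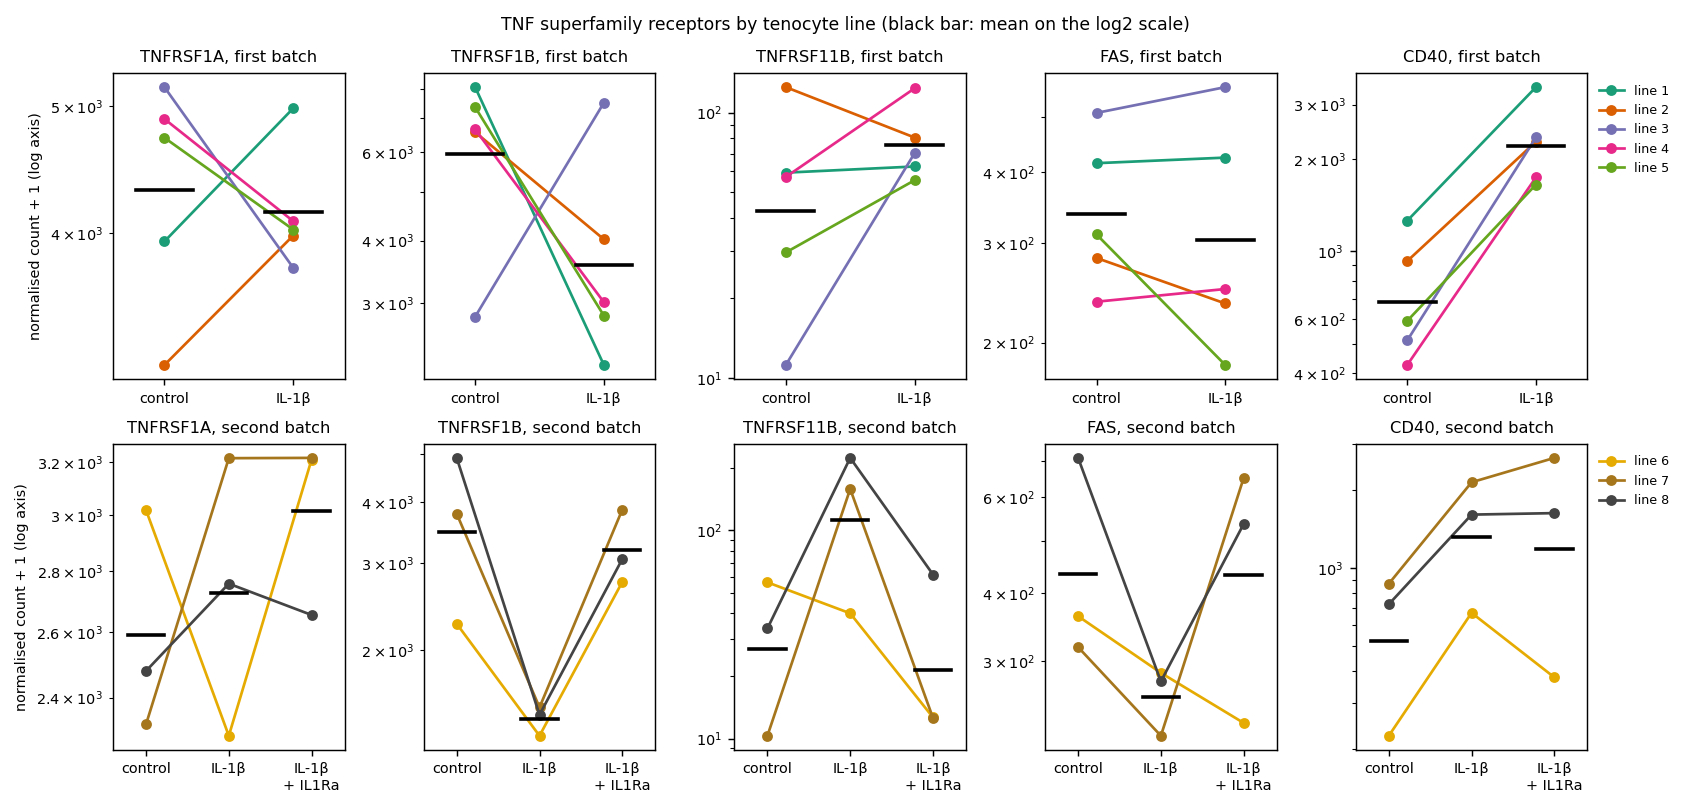
Normalised count + 1 (log axis) of the 5 receptors by condition, drawn as for the ligands with an axis range for each panel. CD40 is higher with IL-1β than in control in each of the 8 lines, TNFRSF1A spans 3171 to 5169 in the first batch on a narrow axis of its own, and TNFRSF1B is lower with IL-1β in each line but line 3.

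**Figure D3:**
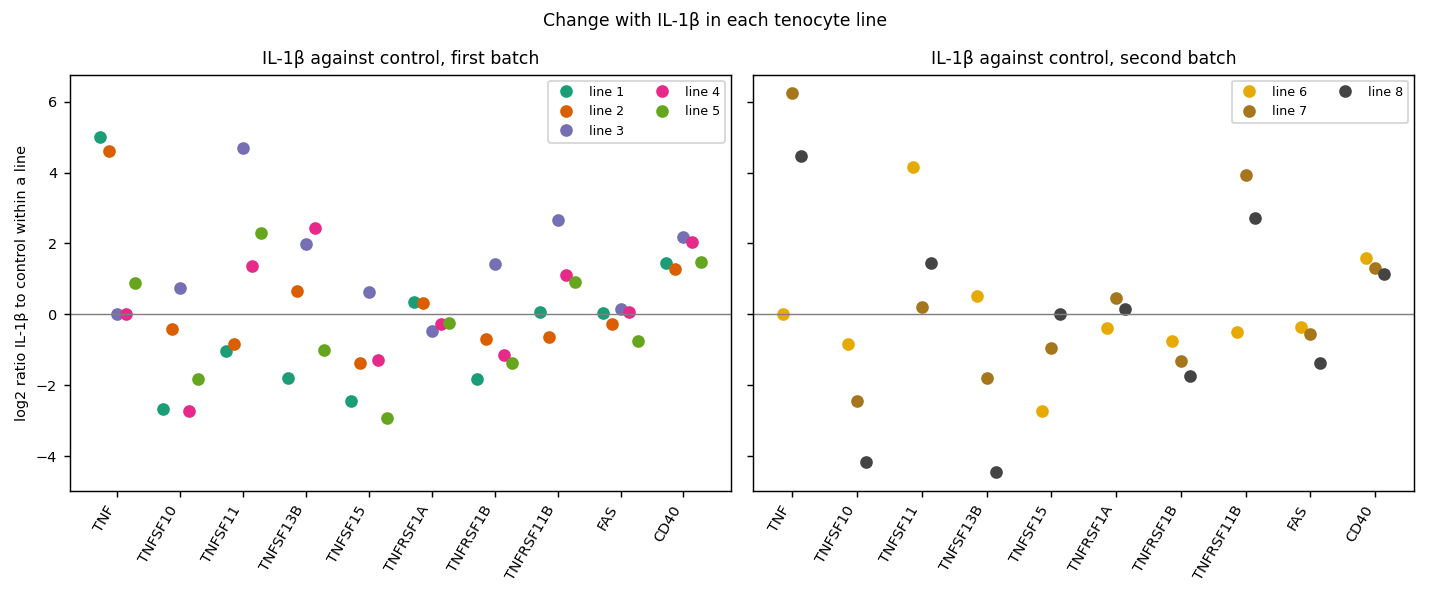
Log2 ratio of IL-1β to control within each tenocyte line (vertical axis) for the 10 genes, with 1 point per line. The points of CD40 all lie above 0, between 1.15 and 2.20, while those of TNFSF11 run from −1.03 to 4.69 and those of TNFSF13B from −4.44 to 2.44.

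The comparisons with IL1Ra asked which of these levels differed when IL1Ra was present beside IL-1β for the same 14 days. IL6 in lines 6 to 8 was 168100, 136500 and 137100 with IL-1β, and 13780, 201700 and 119200 with IL-1β + IL1Ra. It was thus far lower in line 6 only, and the extent of receptor block in these libraries was not measured. Of the 9 family genes fitted, 0 were DE when IL-1β + IL1Ra was set against IL-1β, as were 0 of all 16705 genes (0%, and 0.00599% with the block). By limma without adjustment, 2 of the 9 had a p under 0.05, TNFRSF1B and TNFRSF11B, as did 464 genes (2.78%) of the whole table. With the block these were 5 of the 9, with TNFSF10, TNFSF11 and TNFSF13B added, against 8.38% of all genes. Against control, 0 of the 9 were DE with IL-1β + IL1Ra (0.012% of all genes, and 0.251% with the block), and 0 had an unadjusted p under 0.05 (5.67% of all genes). With the block 1 of the 9 did, CD40 (13.4% of all genes). Both comparisons and that of IL-1β with control draw on the same 9 libraries, so their values are not independent.

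**Figure D4:**
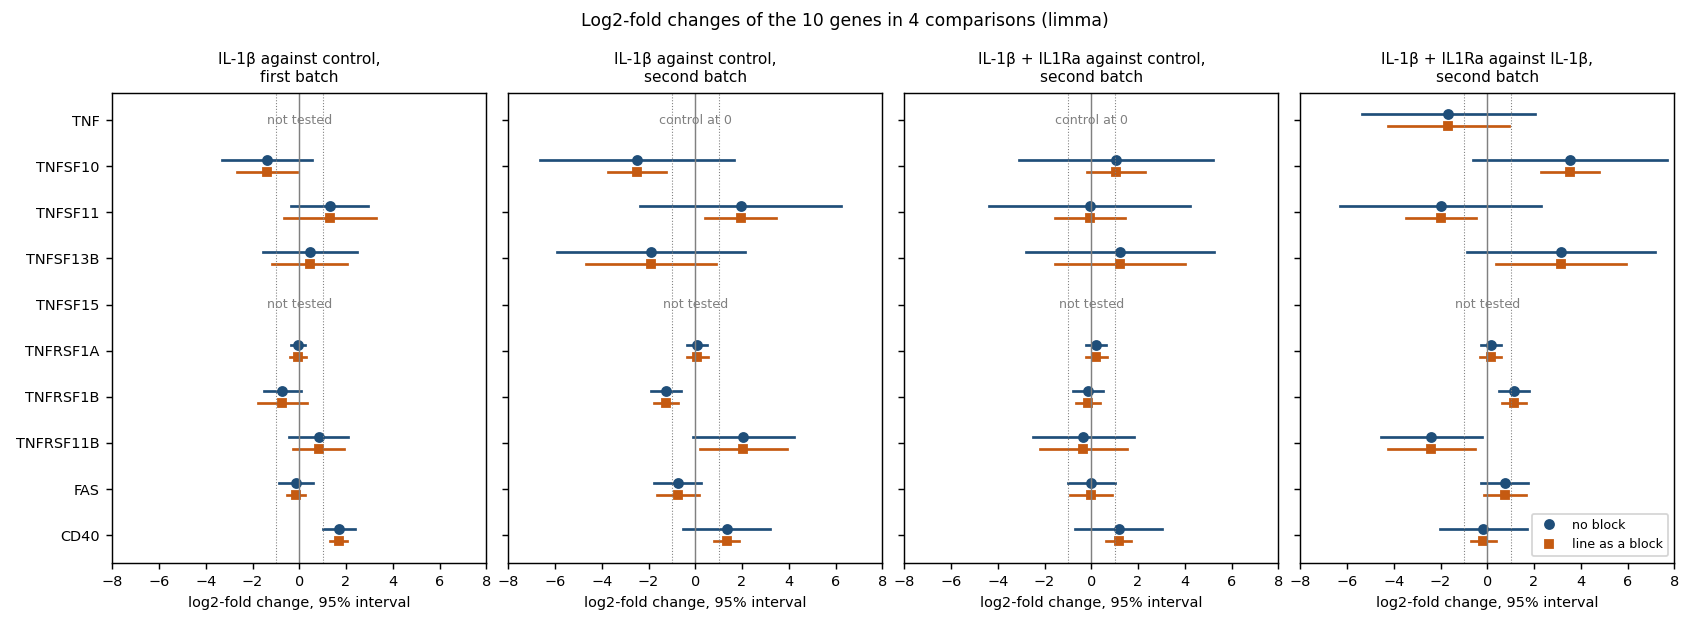
Log2-fold changes with 95% confidence intervals of the tested genes, which were 8 for lines 1 to 5 and 9 for lines 6 to 8, in the 4 comparisons, from limma without a block (circles) and with the block on line (squares). The dotted lines mark −1 and 1, and TNF is not drawn against controls at 0. In the first batch only the CD40 interval lies wholly above 1, and TNFRSF1B is below 0 with IL-1β against control and above 0 for IL-1β + IL1Ra against IL-1β in the second batch.

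Pairs of members were also followed within each library, as the log2 difference between the 2 genes. They were the receptors of TNF, and the ligands TNFSF10 and TNFSF11 each with the decoy TNFRSF11B. The difference itself depends on gene length, so only its change between libraries can be read, and no test was made. TNFRSF1B against TNFRSF1A went from a mean of 0.46 ± 0.79 in first-batch controls to −0.21 ± 0.79 with IL-1β (SD, n = 5). The difference rose in line 3, from −0.87 to 1.00, and fell in the other lines. Among lines 6 to 8 it was −0.42, 0.70 and 0.99 in the controls of lines 6 to 8, −0.78, −1.07 and −0.90 with IL-1β, and −0.22, 0.26 and 0.20 with IL-1β + IL1Ra. The balance of the TNF receptors was thus lowest with IL-1β in each of these 3 lines. TNFSF10 against its decoy TNFRSF11B went from a mean of 2.59 (1.26 to 4.40) to 0.39 (−1.61 to 1.66) among the first 5 lines. Line 2 alone rose, from 1.26 to 1.46. In the second batch this pair was at −0.32, 7.40 and 6.22 in controls, −0.67, 1.03 and −0.69 with IL-1β, and 3.66, 8.35 and 5.41 with IL-1β + IL1Ra. TNFSF11 against TNFRSF11B was 4.16 ± 0.87 in first-batch controls and 4.63 ± 0.74 with IL-1β, and 4.06 ± 4.43, 3.94 ± 0.38 and 4.33 ± 2.09 (SD, n = 3) in the 3 conditions of the second. These means hide opposite moves with IL-1β. Line 6 went from −0.95 to 3.70, line 7 from 7.46 to 3.73 and line 8 from 5.66 to 4.38. In the first batch this pair was lower in lines 1 and 2 and higher in lines 3 to 5.

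TNFSF10 and TNFSF13B are both known as interferon-inducible, so 7 interferon-stimulated genes (ISG15, MX1, IFIT3, OAS1, RSAD2, IFI44 and IRF7), a list chosen after values of these data had been seen, were summed in each library. Among second-batch libraries, line 7 with IL-1β + IL1Ra ranked first of 9 libraries in this sum (57870) and also in TNFSF10 (4090.2) and TNFSF13B (2159). The controls of lines 7 and 8 followed with sums of 18170 and 29760, and the 3 libraries of line 6 had sums of 1417 to 3825. Line 8 with IL-1β was as low, with a sum of 2245, TNFSF10 at 137.8 and TNFSF13B at 12. In the first batch, line 3 went from 2588 to 21110 with IL-1β, the highest sum of that batch, while its TNFSF10 stayed at 51.7 and its TNFSF13B went from 13.1 to 54.7. TNFSF10 in the first batch thus did not follow the order of the interferon sum. Of the 7 genes, RSAD2 was DE upward with IL-1β in lines 1 to 5, and 0 were among lines 6 to 8. The part of interferon signalling in the values of TNFSF10 and TNFSF13B was not tested.

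**Figure D5:**
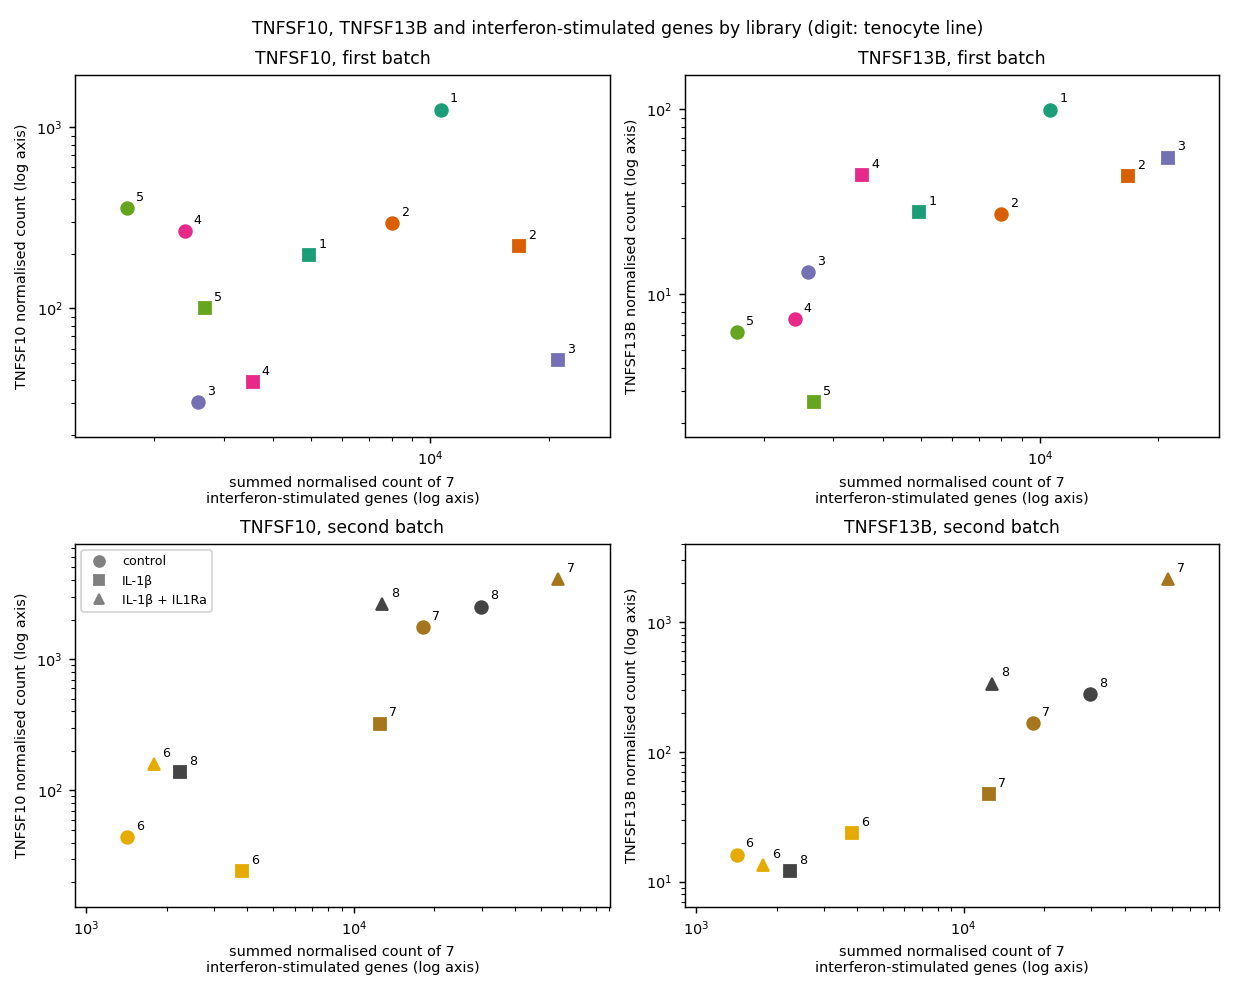
TNFSF10 (left) and TNFSF13B (right) normalised counts against the summed normalised count of 7 interferon-stimulated genes, all on log axes, with the first batch above and the second below. Each point is a library, shapes give the condition and digits the tenocyte line. In the second batch the libraries of line 6, and line 8 with IL-1β, sit at the lower left. Line 7 with IL-1β + IL1Ra is at the upper right, whereas TNFSF10 of the first batch shows line 3 with IL-1β at the right and low.

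The rest of the pathway was followed through gene lists, first among ligands and receptors of the family. As a background for the first-batch counts below, 12.8% of genes were DE with IL-1β, 4.91% upward and 7.9% downward. Of 13 other ligands, 6 were tested in the first batch and 1 was DE: TNFSF4 (OX40L), a T cell costimulator, was upregulated from 3.89 ± 2.60 to 47.3 ± 39.2 (SD, n = 5; log2-fold change 3.12, adjusted p = 0.00376). TNFSF4 passed the filter only through IL-1β libraries. Of 24 other receptors, 15 were tested, 2 were DE upward and 5 downward. TNFRSF8 (CD30) was higher by 2.76 (adjusted p = 0.00221) and RELT by 1.04 (adjusted p = 0.0166). The largest falls among these DE receptors were those of TNFRSF19 (−3.38, adjusted p = 0.0166), TNFRSF13C (−2.85, adjusted p = 5.55e-04) and TNFRSF25 (−1.78, adjusted p = 0.0231). TNFRSF13C is the BAFF receptor, and went from 856.2 ± 209.7 to 129.6 ± 69.6. TNFRSF25 is the receptor of TNFSF15, and went from 73.8 ± 38.4 to 19.7 ± 8.19. The remaining DE falls were those of TNFRSF6B (−1.68, adjusted p = 0.0152) and TNFRSF21 (−1.50, adjusted p = 0.0356). In the second batch their log2-fold changes were −0.02 and −1.72, and neither was DE. TNFRSF6B overlaps ARFRP1 in the newer assembly, so reads of the pair may not be fully separated. TNFRSF11A (RANK), the signalling receptor of TNFSF11, named here as the partner of a member, went from 117.1 ± 86.5 to 27.1 ± 17.7, and its log2-fold change of −2.03 missed the threshold (adjusted p = 0.0515) except with the block (adjusted p = 0.0161). TNFRSF10B, a receptor of TNFSF10, was higher in 5 of 5 lines, but by 0.82 on the log2 scale (adjusted p = 0.00443), under the fold threshold. TNFSF9 (4-1BB ligand) and TNFRSF4 (OX40), with log2-fold changes of 1.76 and 2.93, were DE upward only with the block. The median log2-fold change was −0.09 over the 6 other ligands and −0.19 over the 15 other receptors, against −0.0034 over all genes.

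Inside the cell, the adaptors and proximal signalling genes were all tested in the first batch (26 of 26), and 2 were DE in each direction. BIRC3 and BIRC2, the ubiquitin ligases recruited by TRAF2, were higher by 3.18 (adjusted p = 0.00855) and 1.01 (adjusted p = 0.0177). TRAF5, a TRAF adaptor, and TRAIP were downregulated, with log2-fold changes of −1.81 (adjusted p = 0.0105) and −1.48 (adjusted p = 0.0458). Brakes and ubiquitin-editing genes had 3 of 13 DE, all upward. TNFAIP3 (A20), the deubiquitinase that ends NF-κB signalling, went from 513.2 ± 256.9 to 9604 ± 2035 (SD, n = 5; log2-fold change 4.39, adjusted p = 4.49e-05), and TNIP1, which partners A20, was higher by 1.20 (adjusted p = 0.00486). TRAF3IP2, an adaptor of the IL-17 receptor, was higher by 1.74 (adjusted p = 0.00102). The median log2-fold change was 0.09 for the adaptors and 0.21 for the brakes.

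No shedding enzyme or regulator was DE (0 of 4 tested). ADAM17, the protease that cuts TNF and its receptors free, was higher in 5 of 5 lines but by 0.48 only on the log2 scale (adjusted p = 0.00378), under the fold threshold. Among genes listed because a name or alias of theirs refers to TNF, 7 were tested, 1 was DE upward and 3 downward. TNFAIP6, a hyaluronan-binding protein, went from 2840 ± 488 to 20340 ± 6931 (log2-fold change 2.79, adjusted p = 2.58e-05). TNFAIP8L3, LITAF and TNFAIP8L1 had log2-fold changes of −2.60 (adjusted p = 1.80e-05), −1.45 (adjusted p = 3.49e-04) and −1.28 (adjusted p = 0.0277). These 3 are not themselves named for induction by TNF. Of the listed genes that are so named and were tested, TNFAIP1, TNFAIP2, TNFAIP6 and TNFAIP8, only TNFAIP6 was DE. The list is thus mixed, and its median was −0.31.

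In the second batch, 0.341% of all genes were DE with IL-1β, and 5.18% with the block. Tested were 6 other ligands, 18 other receptors, 26 adaptors, 13 brakes, 4 shedding genes and 8 genes with TNF in a name or alias. IL-1β left 2 genes of these lists DE, TNFAIP3 (log2-fold change 4.76, adjusted p = 0.0171) and TNFAIP6 (3.36, adjusted p = 0.0146). With the block, 8 more were DE: TNFRSF8 (2.15, adjusted p = 0.0336), TRAF2 (1.08, adjusted p = 0.0126), TNIP3 (2.01, adjusted p = 0.0382) and TRAF3IP2 (1.73, adjusted p = 0.0223) upward, and TNFSF8 (−2.60, adjusted p = 0.0309), TNFRSF13C (−1.77, adjusted p = 0.0402), TNFRSF11A (−2.75, adjusted p = 0.0341) and LITAF (−1.26, adjusted p = 0.0214) downward. IL-1β + IL1Ra against IL-1β gave 0 DE genes in every list, also with the block. Over all 16705 genes 0 were DE there, and 0.00599% with the block. Against control, TNFAIP3 and TNFAIP6 with IL-1β + IL1Ra were DE only with the block (log2-fold changes 2.79 and 2.37, adjusted p = 0.0267 and 0.0358), as were 0.251% of all genes. TNFAIP3 went from 251.6 ± 90.9 in controls to 7125 ± 3106 with IL-1β and 1900 ± 983.7 with IL-1β + IL1Ra (SD, n = 3).

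Genes whose pattern was most like that of CD40, the one member DE in the first batch, were sought among 12360 named genes tested in both batches. By Pearson correlation of log2(normalised count + 1) over the 10 first-batch libraries, they were FGF12 (0.984), PRRG4 (0.983) and EREG (0.982), and over the 9 second-batch libraries their correlations with CD40 were 0.909, 0.898 and 0.957. The libraries of a line and of a treatment are shared by both genes of each pair, so these are descriptions.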

How the data were processed

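The signal values were deposited by the authors as DESeq2-normalised counts. For these signal values the authors quantified paired-end reads on the EquCab3.0 transcriptome with Salmon, imported them per gene with tximport and divided them by DESeq2 1.36 size factors in R 4.2.1, separately for the 2 batches. Column names matched 1 sample each, with 0 columns unmapped, and no 2 libraries were identical. Whole reads could not be recovered, so no count model was fitted and the depth behind a value is known only as the library sum.

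A gene was tested where 5 libraries (first batch) or 3 libraries (second batch) reached 10 normalised counts. The test was limma 3.58.1 (R 4.3.3), on log2(normalised count + 1) with a variance trend, and Benjamini-Hochberg adjustment ran over every gene tested. Members below the filter had an exact permutation test. The scripts were tested on simulated data.

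Libraries of a line come from 1 donor, so lines pair the libraries. Deviations from the condition means correlated at 0.351 to 0.578 (5 pairs) and 0.535 to 0.794 (9 pairs) within lines, and at −0.356 to 0.288 (20 pairs) and −0.625 to 0.249 (18 pairs) between lines. The fit without a block was the one planned, since the methods state none. Without the block, p-values set the mean change against the spread between donor lines. With the block, or with signs permuted within lines, they set it against how far changes within a line vary between lines. In the second batch the 3 conditions were fitted together, so the limma comparisons of a gene share an estimate of the spread.

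The members and all lists were chosen with earlier results of these data known. Named genes were the 10 members, up to 3 DE genes in each direction per list in the first batch, and the 3 genes most correlated with each DE member. Others were named where a count of 5 or fewer or a member's binding partner was given, after their values had been seen. Not analysed here were the listed genes TNFRSF10A, TNFRSF10C, TNFRSF10D, RNF31, RHBDF2, COL3A1 and KCNJ8. Alternatives were other pseudocounts, filters and scalings, no trend, 2 conditions only, the block, and each line left out. All 10 member names were found in RefSeq gene records, which follow a later assembly of the horse genome, so no coordinates are given, and sequences were not analysed here.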

Additional observations from a re-analysis of the deposited data

Results flagged for a closer look

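Of 20 groups of 5 libraries examined for a library far from the rest (10 genes in 2 conditions of the first batch), 4 stood out by Dixon's criterion at the 95% level, and chance alone marks about 1 in 20 groups. TNFRSF1B in the control of line 3 was 2821, well below the next lowest control at 6571, and line 3 was also the one line in which TNFRSF1B was higher with IL-1β. TNFSF13B in line 5 with IL-1β was 2.60, against 27.7 for the next lowest. TNFSF15 in the control of line 5 was 6.55, against 4.40 for the next highest. TNF in the control of line 1 was 0.771 where the other 4 controls were listed at 0. With these tied at 0, any value above 0 meets the criterion, so the 95% level does not apply to this group.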

How the results depend on the processing

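Results were recomputed under other pseudocounts, filters, scalings and fits, with a block for the tenocyte line, and without each line in turn. Of the recomputed member values, 539 kept their direction and side of the threshold, 17 passed a threshold they had missed, 4 no longer passed (TNFSF15 in the first batch without line 1, 2, 4 or 5), 1 (TNFSF15 there, signs permuted within lines) could not pass with 5 lines, and 22 changed sign. Members DE in the first batch numbered 1 with all lines, with or without the block, 1 to 2 without 1 line (2 without line 3, CD40 and TNFRSF1B) and 1 to 3 with the block and without 1 line (3 without line 3, with TNFSF10 as well). With IL-1β in the second batch they were 0, 3 with the block, 0 to 2 without 1 line (2 without line 6, TNFRSF1B and TNFSF10) and 0 to 6 with the block and without 1 line (6 without line 6, 0 without line 7 or line 8). For IL-1β + IL1Ra they were 0 to 1 against control (CD40 without line 6) and 0 to 2 against IL-1β (TNFSF10 and TNFSF13B without line 6), both with the block, chosen after seeing the data together with a line left out. The block changed no other call of a member fitted by limma. Over all genes, the blocked fit of the second batch without line 6 had 1421 of 16707 DE with IL-1β. For IL-1β + IL1Ra it had 537 against control and 172 against IL-1β. With IL-1β it had 0 without line 7 and 33 of 16717 without line 8. Without line 3 the first batch had 1729 of 14766 genes DE, and 2220 with the block. The cause of these shifts was not tested.

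Signs changed for values near 0, given here as the range of log2-fold changes without 1 line. In the first batch TNFRSF1A ran from −0.16 (without line 1) to 0.0435 (without line 3) and TNFSF13B from −0.0436 (without line 4) to 1.02 (without line 1). With IL-1β in the second, TNFRSF1A was −0.11 under total-count scaling and −0.12 without line 7. For IL-1β + IL1Ra against control, TNFRSF11B ran from −0.94 (without line 8) to 0.57 (without line 6), FAS from −0.53 (without line 7) to 0.31 (without line 6, and 0.19 without line 8), TNFSF11 from −0.49 (without line 6) to 0.47 (without line 7), TNFRSF1B from −0.33 (without line 6) to 0.16 (without line 8), and TNFSF15 from −0.37 (without line 8) to 1.05 (without line 6). Against IL-1β, TNFRSF1A ran from −0.0273 (without line 6) to 0.24 (without line 8) and CD40 from −0.40 (without line 7) to 0.17 (without line 6). The block left these values as they were. Total-count scaling moved the median of all genes by −0.19 (IL-1β) and 0.11 (IL-1β + IL1Ra against IL-1β) in the second batch.

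Over all genes, 1885 were DE in the first batch (4078 by adjusted p alone). With IL-1β in the second they were 57, against 34 without trend, 32 with 2 conditions only, 865 with the block, 364 without line 6 and 0 without line 7 or 8. For IL-1β + IL1Ra against control they were 2, against 1 under total-count scaling, 3 without trend, 0 with 2 conditions only, 42 with the block and 63 without line 6. Against IL-1β they were 0, against 1 with the block and 10 without line 6. With 3 lines and line 6 far from lines 7 and 8 in TNFSF10, TNFSF11 and CD40, the second batch limits what can be told of these genes.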

Other observations

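TNF with IL-1β was above 3 normalised counts in 4 of the 8 lines, lines 1, 2, 7 and 8. The controls of these lines had the highest interferon-stimulated gene sums among the controls of their batches, 10650 and 7999 in lines 1 and 2 against 1705 to 2588 in lines 3 to 5, and 18170 and 29760 in lines 7 and 8 against 1417 in line 6. The pattern was noticed in these data, rests on 8 lines and was not tested.

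TNFSF11 and TNFRSF1B differed from the other lines in the same line of the first batch. Line 3 had the lowest control of both (134.0 and 2821) and the highest IL-1β library of both (3483 and 7517), and it had the lowest TNFSF10 control as well (30.4).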
